A study of Mus musculus with 16 samples.

Results

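The genes described are the potassium channel genes of the mouse, taken as every protein-coding gene whose symbol starts with Kcn. There were 94 such genes among the 36528 gene identifiers in the data, of which 31049 matched a RefSeq symbol. A further 4 genes with Kcn symbols are not protein-coding and were left out. Their RNA was measured by poly(A) RNA sequencing of retinas taken from mice 3 days after crush of the optic nerve, which damages the axons that retinal ganglion cells send to the brain. The 16 libraries fell into 4 groups: uncrushed retina with vehicle (n = 3), crushed retina with vehicle (n = 3), uncrushed retina with DLKi (n = 5) and crushed retina with DLKi (n = 5). DLKi is GNE-3511, a small-molecule inhibitor of dual leucine zipper kinase, which relays axon damage to the neuron's nucleus; doses of 75 mg/kg were given 60 h and 68 h after the injury. The vehicle is labelled MCT, all groups had the same stated tissue and harvest time, and the labels give no strain, sex or age of the mice. They state 5 mice for each drug, do not say which retinas came from the same mouse, and do not say whether the uncrushed retina is the fellow eye of a crushed one. The p-values below therefore measure the spread between these samples.

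Potassium channels let potassium ions leave or enter a cell down their gradient, and so set the resting voltage of neurons and glia and end each action potential. Voltage-gated (Kv) channels open on depolarisation, inward rectifiers (Kir) hold the resting voltage, tandem-pore (K2P) channels carry leak current, and calcium- or sodium-activated channels couple firing to ion entry. Pore-forming subunits assemble with auxiliary subunits that set their number at the membrane and their gating. In the retina, Kv channels shape the light response of photoreceptors, Kir channels of Müller glia clear potassium released by active neurons, and other potassium channels set how ganglion cells fire and how their axons conduct.

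The selectivity filter, the short loop that lines the narrowest part of the pore, is what the pore-forming members have in common in sequence. Coding sequences of the GENCODE annotation (GRCm38) were searched for a run of 5 codons that reads serine or threonine, any residue, glycine, then tyrosine, phenylalanine or leucine, then glycine. All 77 pore-forming members had at least 1 such run and 0 of 17 auxiliary members had one, against 5.09% of 21478 genes other than Kcn. All 14 K2P genes, whose subunits carry a pore loop in each repeat of the subunit, had 2 runs. Kcna6 and Kcnh2, which are not K2P genes, also had 2, which makes 16 members, and 61 had 1. Whether each run lies in a pore loop was not checked. The labels first loop and second loop below give only the order of the 2 Kcnk6 runs in the coding sequence. The runs of 5 genes whose levels differed after crush, and that stand for 4 families, are shown 5′ to 3′ on the coding strand, with the 5 codons in capitals.
Kcnd2 (Kv1 to Kv4 family), across an exon junction on chromosome 6: atgacaACACTGGGGTATGGCgacatg
Kcng1 (Kv modifier), chr2:168262635-168262661, minus strand: atgacaACCGTAGGCTACGGAgacatg
Kcns1 (Kv modifier), chr2:164164848-164164874, minus strand: atgaccACAGTGGGCTATGGGgatgtg
Kcnj5 (inward rectifier), chr9:32322553-32322579, minus strand: gaaacaACCATTGGGTATGGCttcaga
Kcnk6 first loop (K2P), across an exon junction on chromosome 7: gtcaccACCGTGGGCTATGGCtacacg
Kcnk6 second loop (K2P), chr7:29225530-29225556, minus strand: ctgtccACCATTGGCCTAGGGgactac
The fourth codon of the run is a leucine codon in the second run of Kcnk6 and a tyrosine codon in the other 5 runs. Kcng1 and Kcns1 keep the run although their subunits form no working channel alone and act by joining other Kv subunits.

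Levels are given in nRPKM, the authors' RPKM (reads scaled to gene length and depth) adjusted by a size factor for each library, which allows genes to be compared per length. Among the abundant members was Kcnv2, a modifier subunit of rods and cones that underlies a human cone dystrophy, with a mean of 102 nRPKM and a range of 85.6 to 114 over the 16 libraries. Its range did not overlap that of any other member. Kcnj14, an inward rectifier, stood at 37.7 (27.7 to 49.1), Kcnab2, a cytoplasmic beta subunit of Kv1 channels, at 33.1 (26.1 to 39.1), and Kcna5, a Kv1 pore subunit, at 29.6 nRPKM (19.5 to 33.6). The ranges of these 3 overlapped, so their order is not settled by the spread between libraries. In 3 other families the most abundant genes were Kcnh2, the ERG channel, at 20.2 nRPKM, Kcnk1, a weak K2P rectifier, at 17.4, and Kcnma1, the large-conductance calcium-activated channel, at 14.5.

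**Figure D1:**
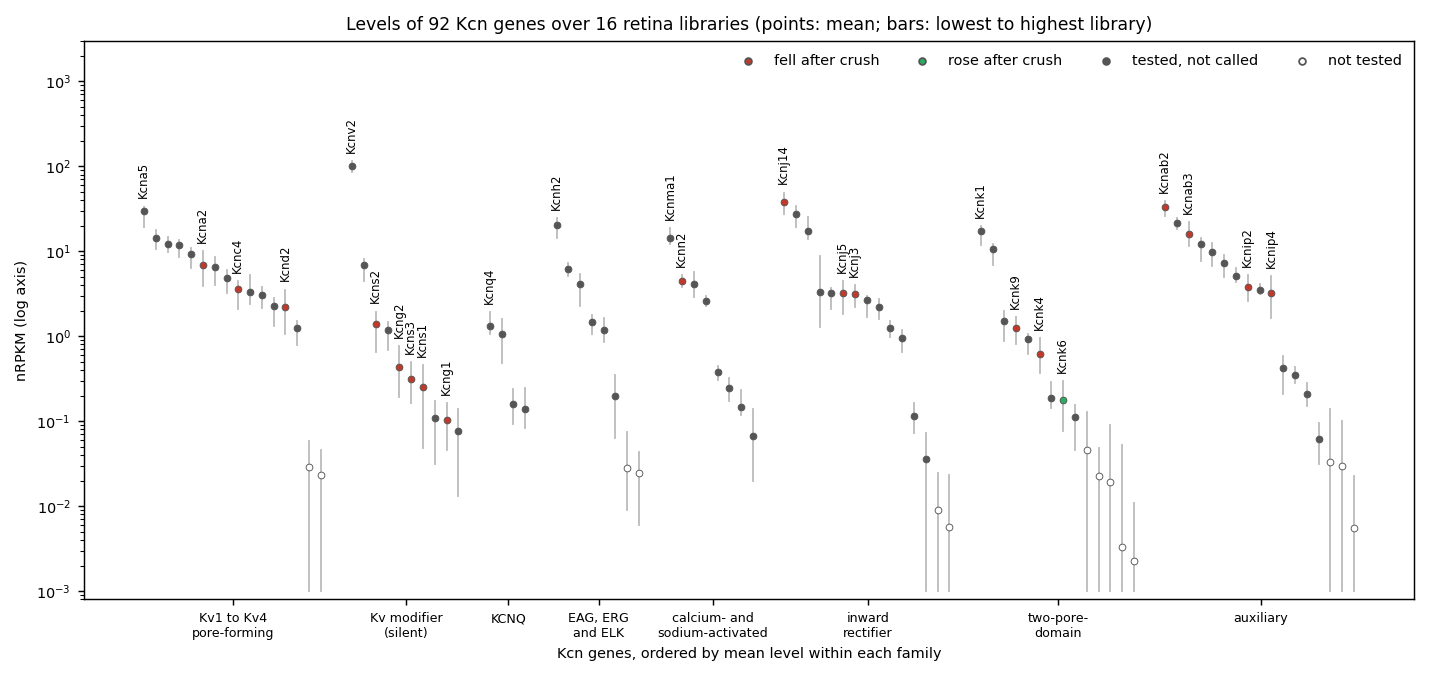
Mean level (points) and lowest to highest library (bars) of 92 of the 94 Kcn genes over 16 libraries, in nRPKM on a log axis, by family; a bar that reaches the bottom axis marks a gene at 0 in at least 1 library. Red and green points are 18 genes called lower and the 1 called higher after crush in the averaged comparison, and open points are the 14 genes too low to test.

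Of the 94 genes, 17 averaged 10 nRPKM or more, 38 lay between 1 and 10, 21 between 0.1 and 1, and 18 below 0.1. A filter on low counts left 80 genes for testing. The 14 not tested, among them Kcnj1, Kcnj15, Kcna7, Kcna10 and 5 K2P genes, had means of at most 0.0463 nRPKM and at most 13 reads in any library. All genes at 0.1 nRPKM or more were tested, and 4 of the 18 below it. Total counts were 22.35 to 44.75 M per library. Kcn genes together took 0.569 ± 0.0222% (SD, n = 3) of the counts in uncrushed and 0.525 ± 0.0201% (n = 3) in crushed retina with vehicle, and 0.598 ± 0.0258% (n = 5) and 0.543 ± 0.0306% (n = 5) with DLKi. Where 4 levels are given below without group names they follow the order uncrushed vehicle, crushed vehicle, uncrushed DLKi, crushed DLKi, as mean ± SD with those n.

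Libraries within a group were not alike. Uncrushed vehicle replicate 1, the shallowest at 22.35 M counts, was the lowest of the 8 uncrushed libraries for 48 of the 80 tested members and for 17 of the 19 members that fell after crush. Crushed vehicle replicate 3, the next shallowest at 25.39 M, was the lowest of the 8 crushed libraries for 46 of the 80 and for 13 of the 19. Both were also the lowest of their side for the summed level of 15 ganglion cell markers (458 and 281 nRPKM) and of 9 amacrine cell markers (155 and 181 nRPKM), and uncrushed vehicle replicate 1 had the highest sum of 8 pigment epithelium markers (328 nRPKM, against 38.6 to 157 in the other 15 libraries). The share of all tested genes for which these libraries were lowest was not worked out, so the counts do not mark Kcn genes in particular. What set these libraries apart was not tested, and counts that rest on them are given with and without the pair.

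The first question was how crush changed potassium channel expression. It was asked with vehicle (3 crushed against 3 uncrushed retinas), with DLKi (5 against 5) and as the mean of both effects, which gives the drugs equal weight and uses all 16 libraries. In the mean effect 19 of the 80 tested potassium channel genes fell, 1 rose and the others did not pass. The largest falls at moderate levels were in Kcnd2, the pore subunit of a fast-inactivating A-type channel, and Kcnip4, an auxiliary subunit of such channels, which fell by 52.8% (Kcnd2) and fell by 47.7% (Kcnip4) in the mean effect. Silent Kv subunits (Kcns1, Kcng2, Kcng1) and the G-protein-gated rectifier Kcnj5 fell as well, and the K2P gene Kcnk6 rose 2.1-fold from a low level.

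With vehicle, 6 of 80 tested members passed (edgeR quasi-likelihood test, Benjamini-Hochberg adjusted p of 0.05 or less over 19391 genes), all 6 lower, which is 7.5%; of all tested genes 2.63% passed and 0.861% passed as lower. With DLKi 10 passed, 9 lower and 1 higher, which is 12.5% against 5.33% of all tested genes (2.04% as lower). In the mean effect 20 passed, 19 lower and 1 higher, which is 25% against 8.45% of all tested genes (3.23% as lower, 5.22% as higher). The median log2 change of the 80 members was -0.089, -0.111 and -0.1 in the 3 comparisons, against -0.003, -0.001 and -0.003 over all tested genes. Single libraries moved these medians: with vehicle it was -0.179 without uncrushed replicate 1, -0.051 without uncrushed replicate 3 and 0.005, with 41 of 80 above 0, without crushed replicate 3. The median of the mean effect was -0.04 without crushed vehicle replicate 3 and -0.066 without uncrushed DLKi replicate 1. The vehicle and DLKi comparisons share no library, although the fit pools their spread. Of the members, 5 passed in both, among them Kcnd2, Kcnip4, Kcnip2 and Kcnj5, which is 83.3% of the 6 and 50% of the 10. A log2 change of the same sign in both was found for 56 of 80. The matching shares over all tested genes were not worked out, so neither count shows agreement particular to these genes. Of the 20 called in the mean effect, 9 passed in neither comparison alone. The vehicle count was 13 without uncrushed vehicle replicate 1, 2 without uncrushed vehicle replicate 2 or replicate 3 and 3 without crushed vehicle replicate 1 or replicate 2. Without the shallow pair the counts were 8 with vehicle, 19 with DLKi and 22 in the mean effect, and the median of the mean effect was -0.065. The share of all tested genes called in these other fits was not worked out, so their counts have no background beside them.

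**Figure D2:**
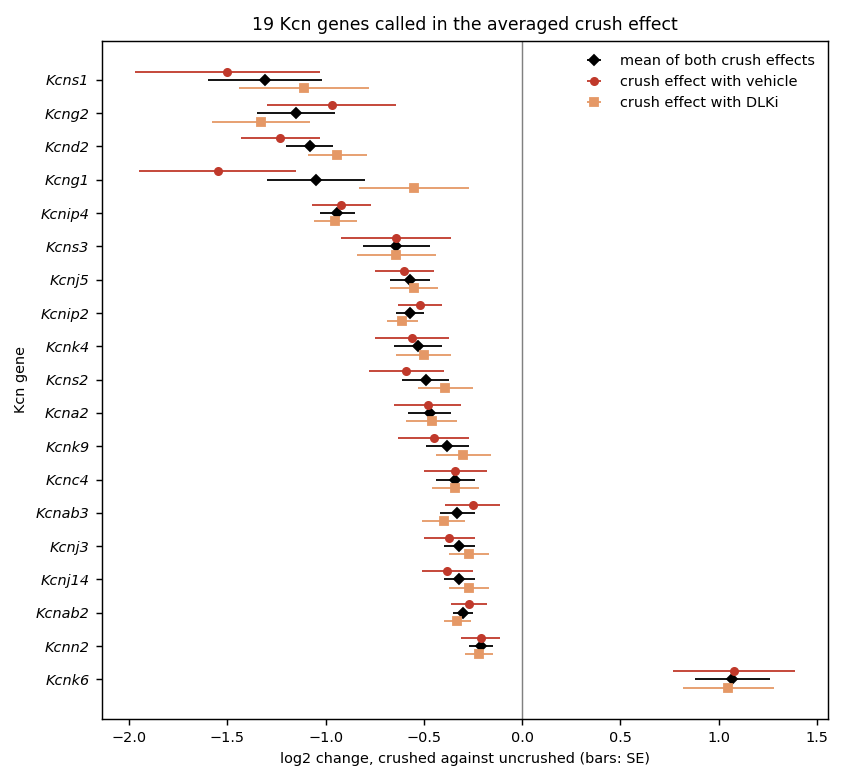
Log2 change after crush with its standard error for 19 of the 20 Kcn genes called in the averaged comparison, with vehicle (circles), with DLKi (squares) and as the mean of both (diamonds). Of those plotted, 18 lie left of 0 and Kcnk6 lies right of it, in all 3 estimates. The genes were chosen by the mean effect, so this agreement in sign is not a test.

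In a bulk sample, fewer cells of a type and less RNA per cell cannot be told apart. In the mean effect 13 of 15 ganglion cell markers fell and 0 rose (median log2 change -0.89), and their summed level was 458 to 751 nRPKM in the 8 uncrushed and 281 to 436 in the 8 crushed libraries, with no overlap. All 10 of 10 microglia markers rose (0.97), with sums of 18 to 28.5 and 30.7 to 62.7 nRPKM. All 8 of 8 lens markers fell (-3.53), with sums of 0.607 to 488 and 0.568 to 18.7 nRPKM that overlap. Of 10 Müller glia markers 2 rose and 2 fell, of 8 rod markers 1 rose and 1 fell, and of 5 horizontal cell markers 1 fell. None of the 7 cone, 8 bipolar, 9 amacrine, 10 endothelium and pericyte, 8 pigment epithelium and 3 tested muscle markers passed in that comparison. No marker of any of these lists was at 0 in all libraries, and rod markers, which define retina, summed to 13600 to 17700 nRPKM. These shifts move with every fall and rise described here, and their part in them was not tested.

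Among the pore-forming Kv1 to Kv4 genes, 3 of 15 tested fell in the mean effect and 0 rose (median -0.19). Kcnd2 (Entrez 16508, GRCm38 chromosome 6, 21215346 to 21729805, plus strand) encodes an A-type subunit that opens below the firing threshold and delays spikes. It read 1.75, 2.9 and 3.42 nRPKM in uncrushed vehicle, 1.31, 1.09 and 1.06 in crushed vehicle, 3.44, 3.54, 3.1, 3.46 and 2.22 in uncrushed DLKi, and 1.48, 1.61, 1.75, 1.71 and 1.66 in crushed DLKi retina. The crushed libraries lay below the uncrushed ones within each drug, and over both drugs only the lowest uncrushed library, vehicle replicate 1, touched the crushed range. The log2 change was -1.23 ± 0.20 with vehicle (SE, edgeR adjusted p = 0.00162), -0.94 ± 0.15 with DLKi (adjusted p = 0.000686) and -1.08 ± 0.12 in the mean effect (adjusted p = 1.41e-05). The other Kcnd genes did not pass. Kcnd3 stood at 10.9 ± 2.12, 11.5 ± 1.99, 12.4 ± 0.902 and 12 ± 0.548 nRPKM in the group order used above, and Kcnd1 at 3.36 ± 0.861, 3.24 ± 0.616, 3.66 ± 0.921 and 2.87 ± 0.372 (mean effect adjusted p = 0.946 and 0.551). As a share of the summed nRPKM of the 3 Kcnd genes, Kcnd2 made up 12% to 18.6% in the uncrushed and 7.1% to 10.3% in the crushed libraries. This share was looked at after the gene's values were seen and is a description.

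The other 2 falls in this family were smaller. Kcna2, a Kv1 subunit of axons, fell from 6.9 ± 1.61 to 4.95 ± 0.929 nRPKM with vehicle and from 8.57 ± 1.29 to 6.23 ± 0.812 with DLKi, a mean effect of -0.47 ± 0.11 (adjusted p = 0.00968). It passed in neither drug alone (adjusted p = 0.23 and 0.059). Kcnc4, a Kv3 subunit of fast-spiking cells, had a mean effect of -0.34 ± 0.10 (adjusted p = 0.0469) and lost its call in 11 of 21 other fits, with adjusted p up to 0.161. Kcna5, the most abundant Kv1 gene, did not pass (mean effect 0.04 ± 0.08, adjusted p = 0.887).

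The Kv modifier genes, whose products join other Kv subunits and shift their gating, had the most calls for their number. Of 10 tested, 5 fell in the mean effect and 0 rose (median -0.26). All 5 were rare transcripts beside Kcnv2, the abundant member of the family, which stood at 101 ± 6.57, 101 ± 7.45, 105 ± 8.11 and 99.9 ± 9.74 nRPKM and did not pass (-0.04 ± 0.06, adjusted p = 0.857).
Kcns1 (Entrez 16538, chromosome 2, 164163619 to 164171113), a modifier with a known role in the excitability of injured sensory neurons, had the largest fall of any member in the mean effect. It read 0.128, 0.381 and 0.461 nRPKM in uncrushed vehicle, 0.136, 0.156 and 0.0489 in crushed vehicle, 0.379, 0.417, 0.303, 0.421 and 0.378 in uncrushed DLKi, and 0.105, 0.13, 0.337, 0.116 and 0.19 in crushed DLKi retina. The groups overlapped with both drugs: uncrushed vehicle replicate 1 lay below crushed vehicle replicates 1 and 2, and crushed DLKi replicate 3 lay above uncrushed DLKi replicate 3. Its mean effect was -1.31 ± 0.29 (adjusted p = 0.00591), from 4 to 57 reads per library, and it passed in neither drug alone (adjusted p = 0.122 and 0.0644).

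Kcng2 (Entrez 240444, chromosome 18, 80294544 to 80364254), another silent subunit, read 0.232, 0.733 and 0.556 nRPKM in uncrushed vehicle and 0.362, 0.232 and 0.2 in crushed vehicle retina, which overlap. With DLKi it read 0.673, 0.633, 0.741, 0.769 and 0.487 uncrushed and 0.257, 0.192, 0.24, 0.325 and 0.298 crushed, which do not. It passed with DLKi (-1.33 ± 0.25, adjusted p = 0.00248) and in the mean effect (-1.15 ± 0.20, adjusted p = 0.00104), but not with vehicle (-0.97 ± 0.33, adjusted p = 0.173). An opposite-strand gene overlaps 9.1% of its exon length, and the library kit does not mark strand.
Kcng1 (Entrez 241794, chromosome 2, 168260117 to 168281533) showed the reverse order. It read 0.0881, 0.159 and 0.164 nRPKM in uncrushed and 0.05, 0.0454 and 0.0467 in crushed vehicle retina, with no overlap, and 0.145, 0.136, 0.102, 0.164 and 0.0998 in uncrushed and 0.0639, 0.112, 0.156, 0.0555 and 0.0536 in crushed DLKi retina, with overlap. It passed with vehicle (-1.55 ± 0.40, adjusted p = 0.0493) and in the mean effect (-1.05 ± 0.25, adjusted p = 0.0095), but not with DLKi (-0.55 ± 0.28, adjusted p = 0.406). These values rest on 8 to 41 reads per library, and the vehicle call was lost in 14 of 22 other fits. The difference of the crush effects did not pass for either gene (Kcng1 1 ± 0.50, Kcng2 -0.36 ± 0.41, adjusted p = 1 for both).
Kcns2 fell by 0.49 ± 0.12 in the mean effect (adjusted p = 0.0124), from 1.37 ± 0.308 to 0.909 ± 0.229 nRPKM with vehicle and from 1.73 ± 0.244 to 1.31 ± 0.146 with DLKi. Kcns3 was also called (-0.64 ± 0.17, adjusted p = 0.0243); it falls outside the rule that set which genes are named and is named here after its values were seen, as are Kcnj3, Kcnn2 and Kcnk9 below and Kcnc4 above.

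**Figure D3:**
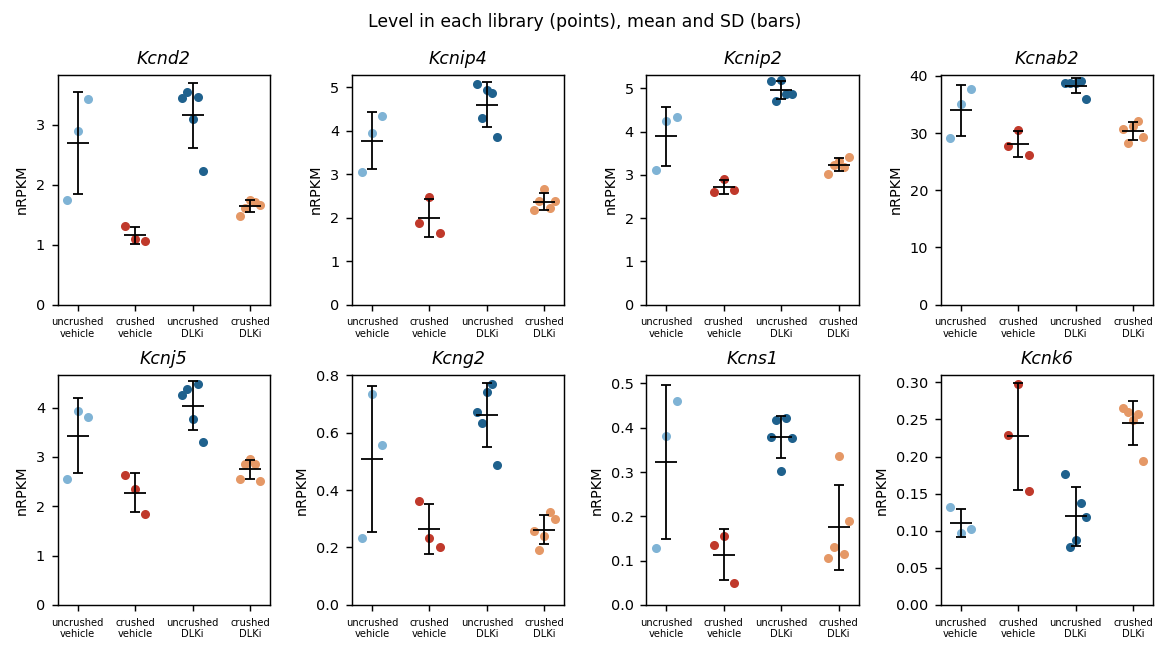
Level in nRPKM of 8 Kcn genes in each library (points) with the mean and SD of each group (bars); groups are uncrushed and crushed retina with vehicle (n = 3 each) and with DLKi (n = 5 each). Crushed libraries sit below all uncrushed libraries for Kcnip4, the ranges touch or overlap over all 16 libraries for the other genes that fell, and Kcnk6 is the gene that rose.

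None of the 6 tested EAG, ERG and ELK genes passed in any crush comparison, and their median mean effect was -0.02. Kcnh2 stood at 19.1 ± 4.15, 19.1 ± 2.12, 21.8 ± 1.79 and 20 ± 0.996 nRPKM (-0.06 ± 0.08, adjusted p = 0.803). Among the 8 calcium- and sodium-activated genes 1 fell in the mean effect, Kcnn2, a small-conductance channel that follows bursts of calcium entry (-0.21 ± 0.06, adjusted p = 0.0373), and it was lost in 11 of 21 other fits (adjusted p up to 0.137). Kcnma1 stood at 13.9 ± 1.66, 15.5 ± 2.86, 14.4 ± 0.739 and 14.3 ± 1.46 nRPKM (0.08 ± 0.07, adjusted p = 0.707).

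Of the 13 tested inward rectifier genes, 3 fell in the mean effect and 0 rose (median -0.09). Kcnj5 (Entrez 16521, chromosome 9, 32314706 to 32344380, minus strand) encodes a subunit of the G-protein-gated channels that neurotransmitters open to quiet a neuron. It read 2.55, 3.93 and 3.81 nRPKM in uncrushed vehicle, 2.63, 2.34 and 1.85 in crushed vehicle, 4.26, 4.38, 3.77, 4.47 and 3.3 in uncrushed DLKi, and 2.56, 2.85, 2.96, 2.85 and 2.52 in crushed DLKi retina. The DLKi groups did not overlap, and with vehicle the low value of uncrushed replicate 1 fell among the crushed ones. The log2 change was -0.60 ± 0.15 with vehicle (adjusted p = 0.0493), -0.55 ± 0.12 with DLKi (adjusted p = 0.00747) and -0.57 ± 0.10 in the mean effect (adjusted p = 0.00069). The vehicle call was lost in 14 of 22 other fits (adjusted p up to 0.28). Kcnj3, which encodes another subunit of these channels, fell by 0.32 ± 0.08 (adjusted p = 0.0167), but an opposite-strand gene overlaps 31.1% of its exon length. Kcnj9 and Kcnj6, also subunit genes of these channels and read outside the naming rule, did not pass. Kcnj9, at a mean of 27.4 nRPKM, had a mean effect of -0.11 ± 0.07 (adjusted p = 0.538). That of Kcnj6, at 0.964 nRPKM, was 0.06 ± 0.13 (adjusted p = 0.878). Kcnj14, the most abundant member of the family, fell from 41.2 ± 2.64 to 31.6 ± 5.05 nRPKM with vehicle and from 42.1 ± 5.26 to 34.9 ± 4.37 with DLKi (-0.32 ± 0.08, adjusted p = 0.0163), and passed in neither drug alone (adjusted p = 0.18 and 0.172). Kcnj10, the main potassium channel of Müller glia, was read for its known role and not by the naming rule: 16.8 ± 2.09, 19.9 ± 4.95, 15.5 ± 1.52 and 18.1 ± 1.58 nRPKM (0.24 ± 0.09, adjusted p = 0.128).

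The K2P genes held the rise among the members. Of 9 tested, Kcnk6 rose in the mean effect and 2 fell (Kcnk4 and Kcnk9; median 0.04). Kcnk6 (Entrez 52150, chromosome 7, 29221928 to 29232522, minus strand) encodes a leak channel known for potassium efflux from macrophages. It read 0.132, 0.0968 and 0.102 nRPKM in uncrushed vehicle, 0.229, 0.298 and 0.154 in crushed vehicle, 0.176, 0.0776, 0.087, 0.137 and 0.119 in uncrushed DLKi, and 0.266, 0.26, 0.249, 0.257 and 0.194 in crushed DLKi retina. The groups did not overlap within either drug, and over all libraries only the lowest crushed one (0.154) fell inside the uncrushed range. The rise was 1.05 ± 0.23 on the log2 scale with DLKi (adjusted p = 0.00782) and 1.07 ± 0.19 in the mean effect (adjusted p = 0.00105), and with vehicle alone it did not pass (1.08 ± 0.31, adjusted p = 0.0754). These values rest on 14 to 52 reads per library. The summed microglia markers given above rose in the same libraries. Kcnk4, a leak channel opened by membrane stretch, passed with DLKi (-0.50 ± 0.14, adjusted p = 0.05) and in the mean effect (-0.53 ± 0.12, adjusted p = 0.00687), from 0.669 ± 0.125 to 0.453 ± 0.095 nRPKM with vehicle and from 0.75 ± 0.112 to 0.529 ± 0.0606 with DLKi. Its DLKi call was lost in 13 of 22 other fits, and a same-strand gene overlaps 13.1% of its exon length. Kcnk9 fell by 0.38 ± 0.11 (adjusted p = 0.0488) and was lost in 11 of 21 other fits. Kcnk1 stood at 15.9 ± 3.76, 17.2 ± 2.41, 18.1 ± 1.29 and 17.7 ± 1.11 nRPKM (0.04 ± 0.08, adjusted p = 0.893).

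Of 14 tested auxiliary genes, 4 fell in the mean effect and 0 rose (median -0.15), and these were Kcnip4, Kcnip2, Kcnab2 and Kcnab3. The Kcnip genes encode calcium-binding subunits that bring A-type Kcnd channels to the membrane. Kcnip4 (Entrez 80334, chromosome 5, 48389503 to 49525122, minus strand) read 3.04, 3.95 and 4.33 nRPKM in uncrushed vehicle, 1.87, 2.48 and 1.64 in crushed vehicle, 5.07, 4.28, 4.93, 4.86 and 3.85 in uncrushed DLKi, and 2.18, 2.39, 2.66, 2.23 and 2.39 in crushed DLKi retina. All crushed libraries lay below all uncrushed ones. Of the 80 tested members, 2 (2.5%) had such a complete separation downward in nRPKM, against 0.639% of all tested genes, and 0 had it upward, against 1.84%. The log2 change of Kcnip4 was -0.92 ± 0.15 with vehicle (adjusted p = 0.00139), -0.95 ± 0.11 with DLKi (adjusted p = 3.93e-05) and -0.94 ± 0.09 in the mean effect (adjusted p = 2.57e-06), the lowest p of any member. Opposite-strand genes overlap 7.36% of its exon length.
Kcnip2 (Entrez 80906, chromosome 19, 45792346 to 45816422, minus strand) read 3.11, 4.24 and 4.33 nRPKM in uncrushed and 2.6, 2.9 and 2.65 in crushed vehicle retina, and 5.17, 4.7, 5.19, 4.87 and 4.88 in uncrushed and 3.01, 3.23, 3.32, 3.19 and 3.42 in crushed DLKi retina. The groups did not overlap within either drug. The log2 change was -0.52 ± 0.11 with vehicle (adjusted p = 0.00993), -0.61 ± 0.08 with DLKi (adjusted p = 0.000128) and -0.57 ± 0.07 in the mean effect (adjusted p = 1.9e-05). The other Kcnip genes were more abundant and did not pass: Kcnip1 had a mean effect of -0.16 ± 0.09 (adjusted p = 0.4) and Kcnip3 one of 0.01 ± 0.08 (adjusted p = 0.969). Kcnip4 made up 14.4% to 17% of the summed Kcnip nRPKM in uncrushed and 9.4% to 10.8% in crushed libraries, a share looked at after its values were seen. Leaving out a vehicle library, or fitting the vehicle groups alone, ended the vehicle call of Kcnip2 in 4 of 22 other fits (adjusted p up to 0.186).

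The beta subunits that fell are abundant. Kcnab2 (Entrez 16498, chromosome 4, 152390744 to 152477549) read 29.1, 35.1 and 37.8 nRPKM in uncrushed and 27.7, 30.6 and 26.1 in crushed vehicle retina, which overlap, and 38.7, 38.8, 38.8, 39.1 and 36 in uncrushed and 30.7, 28.2, 31.3, 32.1 and 29.4 in crushed DLKi retina, which do not. It passed with DLKi (-0.33 ± 0.07, adjusted p = 0.00465) and in the mean effect (-0.30 ± 0.05, adjusted p = 0.00116), a fall of 18.8%. Kcnab3 fell from 19.3 ± 1.6 to 14.6 ± 1.03 nRPKM with DLKi (-0.40 ± 0.11, adjusted p = 0.0378) and stood at 15.7 ± 3.86 and 13.2 ± 2.17 with vehicle (adjusted p = 0.638). Its DLKi call was lost in 8 of 22 other fits (adjusted p up to 0.116). Kcnab1, the remaining beta subunit, had a mean effect of 0.07 ± 0.09 (adjusted p = 0.825).

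Other genes whose products work with potassium channels were read from a pair of lists. The lists were chosen with earlier results of these data known, so their counts are descriptions. Of 16 tested auxiliary and clustering partners, 5 fell in the mean effect and 0 rose (median -0.11, against -0.003 over all tested genes). Of all tested genes 3.23% were called lower and 5.22% higher in that effect. Dpp10, a membrane peptidase homologue that, like Kcnip proteins, is a subunit of A-type Kcnd channels, fell from 3.52 ± 0.54 to 1.65 ± 0.47 nRPKM with vehicle and from 3.94 ± 0.702 to 1.89 ± 0.158 with DLKi (mean effect -1.08 ± 0.12, adjusted p = 7.62e-06). Its homologue Dpp6 did not pass (-0.09 ± 0.10, adjusted p = 0.769). Lgi1, a secreted protein of Kv1 channel complexes, fell from 1.6 ± 0.138 to 0.675 ± 0.327 and from 1.69 ± 0.336 to 0.73 ± 0.0651 nRPKM (-1.21 ± 0.15, adjusted p = 3.06e-05). Its receptor genes Adam23 (-0.31 ± 0.04, adjusted p = 7.41e-05) and Adam22 (-0.20 ± 0.06, adjusted p = 0.032) fell less, as did Cntnap1, a protein of the axon beside the node of Ranvier (-0.45 ± 0.07, adjusted p = 0.000618). Dpp10 and Lgi1 passed with vehicle and all 5 passed with DLKi.
Of 17 tested HCN channel, potassium pump and cotransporter genes, 3 fell and 2 rose in the mean effect (median -0.04). The shares over all tested genes are again 3.23% lower and 5.22% higher. Fxyd7, a regulator of the sodium-potassium pump in neurons, fell from 5.27 ± 0.954 to 1.73 ± 0.469 nRPKM with vehicle and from 6.11 ± 0.759 to 1.77 ± 0.245 with DLKi (-1.69 ± 0.12, adjusted p = 5.75e-08). Atp1b1, a subunit of that pump, fell by 0.34 ± 0.10 (adjusted p = 0.0414). Slc12a4, a potassium-chloride cotransporter, rose by 0.36 ± 0.09 (adjusted p = 0.0151), and Hcn2, a hyperpolarisation-activated channel, fell by 0.26 ± 0.07 (adjusted p = 0.0243).

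Promoters were read for genes that passed in both crush comparisons, and whether these genes share regulation was not tested. RefSeq promoter entries (GRCm38.p6) matched 69 Kcn genes with 94 start sites, and 11 of the 20 genes called in the mean effect. Kcnip4, Kcnd2, Kcnip2 and Kcnj5, each called with both drugs, are shown. In the 250 bases before each start, 4 motifs were searched on both strands. The GC box, GGGCGG, was in 44.7% of the 94 Kcn entries and in 32.7% of all 32851 entries. The AP-1 site, TGANTCA, was in 4.26% of the Kcn entries and 6.75% of all. The TATA box, TATAAA, was in 3.19% of the Kcn entries and 12.4% of all, and the CRE, TGACGTCA, in 0 of the 94 and 1.55% of all. These are descriptions with no test. The promoters follow 5′ to 3′ on the gene's strand, with motif matches in capitals, and no printed match overlaps another.
Kcnip4, chr5:49285660-49285909, minus strand: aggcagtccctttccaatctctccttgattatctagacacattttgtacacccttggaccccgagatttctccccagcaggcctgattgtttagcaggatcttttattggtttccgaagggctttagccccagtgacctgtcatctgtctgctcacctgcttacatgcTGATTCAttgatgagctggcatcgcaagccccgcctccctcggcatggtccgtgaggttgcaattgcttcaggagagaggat
Kcnd2, chr6:21215096-21215345, plus strand: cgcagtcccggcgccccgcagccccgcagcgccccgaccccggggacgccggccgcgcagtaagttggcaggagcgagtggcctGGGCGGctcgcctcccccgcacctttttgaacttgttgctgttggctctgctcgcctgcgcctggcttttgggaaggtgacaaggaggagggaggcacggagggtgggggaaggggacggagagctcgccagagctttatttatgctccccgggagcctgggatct
Kcnj5, chr9:32344345-32344594, minus strand: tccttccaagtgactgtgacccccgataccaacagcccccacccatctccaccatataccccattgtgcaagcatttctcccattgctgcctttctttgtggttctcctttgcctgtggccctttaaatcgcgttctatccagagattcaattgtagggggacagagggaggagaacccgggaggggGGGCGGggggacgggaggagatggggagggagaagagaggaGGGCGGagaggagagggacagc
Kcnip2, chr19:45816064-45816313, minus strand: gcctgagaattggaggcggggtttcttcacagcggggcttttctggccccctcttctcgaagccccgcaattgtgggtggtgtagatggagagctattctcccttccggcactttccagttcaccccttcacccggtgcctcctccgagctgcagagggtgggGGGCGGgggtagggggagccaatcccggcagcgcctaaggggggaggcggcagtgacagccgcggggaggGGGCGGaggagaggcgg
The Kcnip4 stretch holds 1 AP-1 match and no GC box, and a second Kcnip4 start held no match to any of the 4 motifs. Both Kcnip4 starts lie inside the gene's span of 48389503 to 49525122 and so are internal starts. The Kcnip2 stretch also lies inside its gene, which spans 45792346 to 45816422. The Kcnj5 stretch overlaps the end of its gene, at 32344380. The Kcnd2 stretch ends just before its gene begins, at 21215346. Which start is used in these retinas was not tested. The Kcnd2 stretch holds 1 GC box and the Kcnj5 and Kcnip2 stretches 2 each. GC content was 51.2% for Kcnip4, 68.8% for Kcnd2, 58% for Kcnj5 and 66.8% for Kcnip2, against a median of 58.6% over the Kcn entries and 52.4% over all entries.

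The second question was whether DLKi changed potassium channel expression. No member passed in crushed retina (5 DLKi against 3 vehicle libraries), where 0.505% of all tested genes passed. DESeq2 and limma also called 0. An unadjusted p under 0.05 in the edgeR quasi-likelihood test was found for 6 of the 80 members and 2665 of all 19391 tested genes. The lowest adjusted p belonged to Kcns2 (0.52 ± 0.17, adjusted p = 0.199) and Kcnd2 (0.51 ± 0.18, adjusted p = 0.231). Crushed Kcnd2 stood at 1.15 ± 0.136 nRPKM with vehicle and 1.64 ± 0.103 with DLKi, and the libraries of these groups did not overlap. In the same comparison 3 of 15 ganglion cell markers (Isl2, Pou4f1 and Pou4f2) rose. The median log2 change of the 80 members was 0.085, with 53 above 0, against 0.008 over all tested genes. Without the shallow pair it was -0.009, with 39 above 0, and without crushed vehicle replicate 3 alone -0.008.

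In uncrushed retina 0 members passed, against 0.629% of all tested genes. By the edgeR test 10 of the 80 members had an unadjusted p under 0.05, against 3349 of all 19391 tested genes. Kcnip2 had the lowest adjusted p (0.34 ± 0.09, adjusted p = 0.104), at 3.89 ± 0.68 nRPKM with vehicle and 4.96 ± 0.21 with DLKi, and was the 1 member called by DESeq2 (adjusted p = 0.0218) and by limma with sample weights (adjusted p = 0.04). Kcnj13, the inward rectifier of the pigment epithelium, came next at -1.11 ± 0.37 (adjusted p = 0.161). It read 8.78, 4.19 and 2.71 nRPKM in uncrushed vehicle and 4.44, 1.32, 1.3, 2.94 and 2.04 in uncrushed DLKi retina. The highest value was in uncrushed vehicle replicate 1, the library with the highest sum of pigment epithelium markers, whose median log2 change in this comparison was -0.77 with 0 of 8 called. Exons of Gigyf2 overlap 49.1% of the exon length of Kcnj13. Over the 80 members the median log2 change was 0.164, with 59 above 0, against 0.007 over all tested genes, and without the shallow pair, or without uncrushed vehicle replicate 1 alone, it was 0.031, with 51 above 0. Of the partner genes Tmem175, a lysosomal potassium channel, rose in this comparison, from 6.11 ± 0.26 to 7.97 ± 0.644 nRPKM (0.38 ± 0.07, adjusted p = 0.0281).

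The last comparison asked whether the crush effect differed between the drugs. No member passed, against 0.0103% of all tested genes, and DESeq2 and limma called 0. By the edgeR test 1 of the 80 members had an unadjusted p under 0.05, against 298 of all 19391 tested genes. The lowest p belonged to Kcnk12, a K2P gene, at -0.57 ± 0.27 (adjusted p = 1). Kcnk12 stood at 1.3 ± 0.369, 1.71 ± 0.399, 1.61 ± 0.286 and 1.42 ± 0.197 nRPKM in the group order used above. For Kcnd2 the difference was 0.29 ± 0.25 and for Kcnip4 -0.04 ± 0.18 on the log2 scale. A p that misses the threshold does not show that the crush effects were equal.

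**Figure D4:**
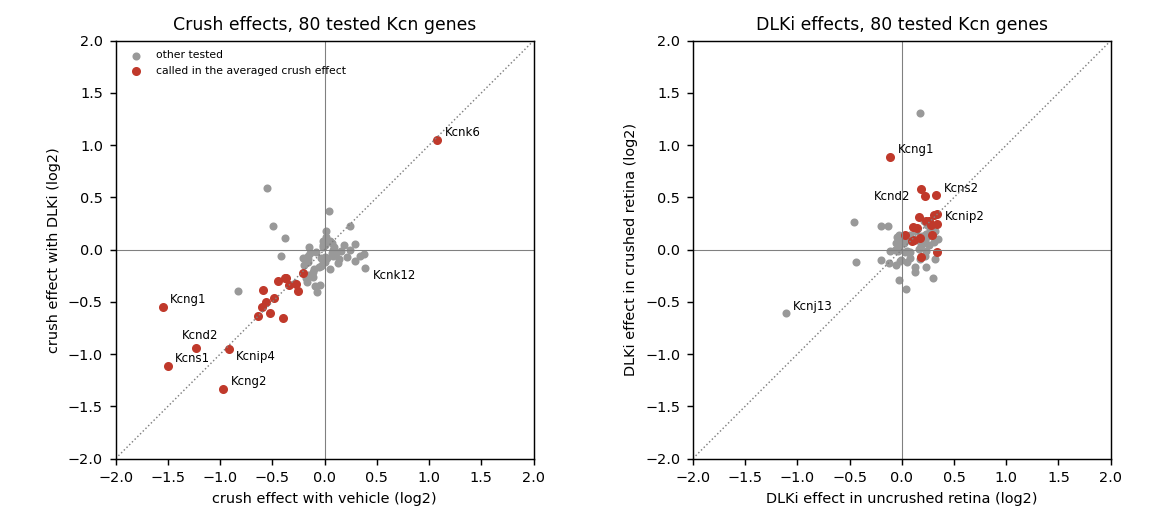
Log2 changes of the 80 tested Kcn genes, each point a gene: left, the crush effect with DLKi against that with vehicle; right, the DLKi effect in crushed against that in uncrushed retina, with the dotted line marking equal values. Red points are the 20 genes called in the averaged crush effect. On the left all 20 have the same sign on both axes, but they were chosen by the mean of these same effects. Their agreement in sign is therefore not a test. Of all 80 tested Kcn genes, 56 have the same sign on both axes, and the share over all genes was not worked out. On the right no gene was called on either axis.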

How the data were processed

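The authors deposited a count of uniquely aligned reads for every Entrez gene, per the file headers. Per the submitters' processing notes, GSNAP aligned the reads to GRCm38. Neither its version nor the gene annotation is given in the sources used here. A second deposited value, nRPKM, is per the file headers an RPKM that the authors scaled by a size factor. The ratio of nRPKM to count was constant across 20364 genes up to a factor for each library (log-ratio SD up to 2.59e-13), so it adds only gene length and a library factor. Unique alignment lowers counts of near-identical genes, and the kit does not mark strand: 28 of the 94 members share some exon sequence with another gene in GENCODE M21, and 4 share over 25%.

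All 6 contrasts were fitted on the counts by edgeR 4.0.16 under R 4.3.3 (TMM factors 0.9729 to 1.024, filterByExpr, quasi-likelihood F test, two-sided) on all 16 libraries, with a mean for each group, 12 residual and 5.27 prior degrees of freedom, and Benjamini-Hochberg adjustment over 19391 genes; calls are at 0.05 or less. Every adjusted p is from this fit unless DESeq2 1.42.0 or limma 3.58.1 (voom, sample weights) is named. SE belong to the log2 change and SD to nRPKM. The fit was tested on simulated data. Totals of 22.35 to 44.75 M counts limit genes under about 0.1 nRPKM.

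Families follow symbols. Named are called members (the 12 lowest p a direction), the most abundant of each family, the 5 most abundant, the 2 lowest p where none was called, and up to 4 called partner genes for a list. Members and lists were chosen with earlier results of these data known. Alternatives are other size factors, no count filter, DESeq2, limma, only the groups compared, no shallow pair, each library left out and, added after seeing the data, libraries with adjacent numbers in their titles as blocks. A few genes are not reported here, although the counts of members include them; the plots of levels and of crush effects leave them out.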

Additional observations from a re-analysis of the deposited data

Results flagged for a closer look

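The 28 members examined were all called members, also those outside the naming rule, with the abundant and lowest-p members that the rule takes. Each was examined in the 2 DLKi groups, which have 5 libraries. Groups of 3 were not examined. In 4 of these 56 sets (7.14%) the highest or lowest library stood apart from the other 4 by more of the range than Dixon's 95% limit of 0.71 allows, and chance flags about 1 in 20. Kcnab2 read 36 nRPKM in uncrushed DLKi replicate 5 against 38.7 to 39.1 in the others. Kcnk4 read 0.946 in uncrushed DLKi replicate 1 against 0.671 to 0.728, and this gene's crush call with DLKi is 1 of those lost when single libraries were left out. Kcnk6 read 0.194 in crushed DLKi replicate 5 against 0.249 to 0.266, still above the 5 uncrushed DLKi libraries. Kcnk9 read 0.849 in crushed DLKi replicate 1 against 1.2 to 1.33.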

How the results depend on the processing

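No called gene changed sign in any alternative; medians over the members did, as given above. Of the calls, 2 of 6 with vehicle (Kcnd2, Kcnip4), 8 of 10 with DLKi (not Kcnab3, Kcnk4) and 13 of 20 in the mean effect (not Kcnab3, Kcnc4, Kcnj14, Kcnj3, Kcnk9, Kcnn2, Kcns3) held in every fit. Counts called with vehicle were 12 by limma and 2 in a fit of the vehicle groups alone, and ranged from 2 to 13 with a library left out. With DLKi they were 22 by limma, 18 with only the DLKi groups and 19 without the shallow pair, and 8 to 16 with a library left out (16 without uncrushed vehicle replicate 1). The mean effect gave 14 to 26. For these fits the share of all tested genes called was not worked out, so the counts describe only how the calls shift. The drug comparisons and the difference stayed at 0 with any library left out; in uncrushed retina DESeq2 and limma each called 1 gene, Kcnip2. By CPM in place of nRPKM 7 of the 10 most abundant members were the same. No label ties 2 retinas to 1 mouse, but library numbers in the titles run in 8 adjacent pairs of 1 crushed and 1 uncrushed retina of the same drug. Over 19391 genes, deviations from the group means correlated within these pairs at 0.03 to 0.421, over 0.1 in 7 of 8, and in those 7 each library correlated best with its own partner, a hint from the data and not from the design. A fit with these pairs as a replicate block, chosen after seeing the data, called 17 members with vehicle (15 lower), 28 with DLKi (26 lower) and 30 in the mean effect (27 lower), against 6.36%, 10.7% and 14.5% of all tested genes. All 6, 10 and 20 calls made without the block were among them, and the difference stayed at 0. By the edgeR test in this fit, calls with vehicle included Kcna2 (-0.47, adjusted p = 0.0168) and Kcns1 (-1.5, adjusted p = 0.0354) as lower. Kcng4 (0.3, adjusted p = 0.0104) and Kcnj10 (0.22, adjusted p = 0.0499) were called higher with vehicle. Neither Kcng2 (adjusted p = 0.0528) nor Kcnk6 (adjusted p = 0.0537) was called with vehicle. The mean effect added Kcnj10 (0.23, adjusted p = 0.00107) and the modifier gene Kcng4 (0.18, adjusted p = 0.0073) as higher. Among those it added as lower was Kcnip1 (-0.16, adjusted p = 0.00482). The drug comparisons lie between pairs and have no value in this fit. Depth limits genes under about 0.1 nRPKM, whose values rest on few reads.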
